A study of Homo sapiens with 8 samples.

Results

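The input libraries of a ChIP-seq series on medulloblastoma (MB) cell lines were read as a profile of DNA content along the chromosome arms. An input library is sonicated chromatin that is sequenced without antibody enrichment, and here 1 input library was made from each of 4 human lines. The members were the enhancer regions of 1 kb or longer on chromosomes 1 to 22 in the 4 deposited tables, and of each region only the input signal was used. They numbered 52329 of the 88550 regions in all, with 15240 of 26072 from MB002, 14035 of 26317 from D425, 8839 of 15286 from HD-MB03 and 14215 of 20875 from UW228. The input signal of a region was divided by its length and then by the median density over all regions of the same line, so that a relative input density of 1 is the middle of the line and not a known number of copies. Arms were compared by the median over their regions, and 39 arms held at least 30 regions in every line. The short arms of chromosomes 13, 14, 15, 21 and 22 held no region.

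The series mapped H3K27Ac, a mark of active enhancers, to define super-enhancers in Group 3 medulloblastoma (G3-MB). MB002, D425 and HD-MB03 are labelled G3-MB and UW228 carries the label of the SHH subtype. MB002 and HD-MB03 were grown in a stem cell medium with EGF, FGF and LIF, whereas D425 and UW228 were grown in DMEM with serum, and none of the cells was treated. Cells were crosslinked with formaldehyde and sonicated, and the antibody field of the 4 input samples reads none. Each line is a single established culture with 1 input library, so no spread between replicates exists, no test between lines was possible, and all comparisons are descriptions of these 4 libraries. Medium, subtype and line cannot be told apart, and the UW228 table was also made on a later date than the other 3. The labelled cell type could not be checked, since input carries no expression or mark.

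Reads of an input library fall on a stretch of the genome in proportion to the copies of that stretch, modified by base composition, mappability and chromatin accessibility. A chromosome arm that is present in more copies than the rest therefore gathers more input, and an arm that lost copies gathers less. In medulloblastoma such arm-level changes are part of how subtypes are described. An isochromosome of 17q, which joins long arms of chromosome 17 and so combines loss of 17p with gain of 17q, is common in Group 3 and Group 4 tumors. Gains of 1q, 7 and 18 and losses of 8, 10q, 11 and 16q are also known from Group 3, while SHH tumors are known for gains of 3q and 9p and losses of 9q, 10q, 14q and 17p. The gene lost on 9q in SHH tumors is *PTCH1*, the receptor that holds the hedgehog pathway inactive.

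The input was read only where H3K27Ac regions had been called, and these were called separately in each line. Together the regions used covered 150 Mb for MB002, 149 Mb for D425, 79.6 Mb for HD-MB03 and 142 Mb for UW228, with median lengths of 4192 to 5693 bp. Library depth was unknown from these values, and counting error could not be given. In its place the quartiles over the regions of an arm and the range of the medians of its 10 Mb windows are given, which describe the evenness of an arm and not the error between cultures. The middle 50% of regions of an arm spanned a ratio of upper to lower quartile of 1.32 in both MB002 and HD-MB03, 1.52 in D425 and 1.44 in UW228, each as the median over arms. The MB002 and HD-MB03 libraries were thus the more even ones.

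An arm was called high at a median relative input density of 1.2 or more, and low at 0.833 or less, which is the same factor below 1. MB002 had 3 high arms (7.69% of 39) and 1 low arm (2.56%), and HD-MB03 also had 3 high arms (7.69%) and 1 low arm (2.56%). D425 had 12 high arms (30.8%) and 1 low arm (2.56%), and UW228 had 11 high arms (28.2%) and 6 low arms (15.4%). Single regions scattered far more widely than arms. At the same factor, 27.5% of the MB002 regions were high and 20.8% low. The shares were 35.6% and 26.4% for D425, 25.2% and 19.8% for HD-MB03, and 34.9% and 28.3% for UW228. In all, 27 of the 39 arms were high or low in at least 1 line, and 12 arms (2q, 3p, 4p, 4q, 5q, 9q, 10q, 12p, 12q, 14q, 19q and 21q) in no line. The arms that were neither high nor low lay within 0.919 to 1.06 in MB002 and 0.925 to 1.06 in HD-MB03. They spread more widely in D425, from 0.840 to 1.199, and in UW228, from 0.852 to 1.19. In MB002 and HD-MB03 the called arms therefore stood apart from the others by a gap, while in D425 and UW228 the levels ran into each other.

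**Figure D1:**
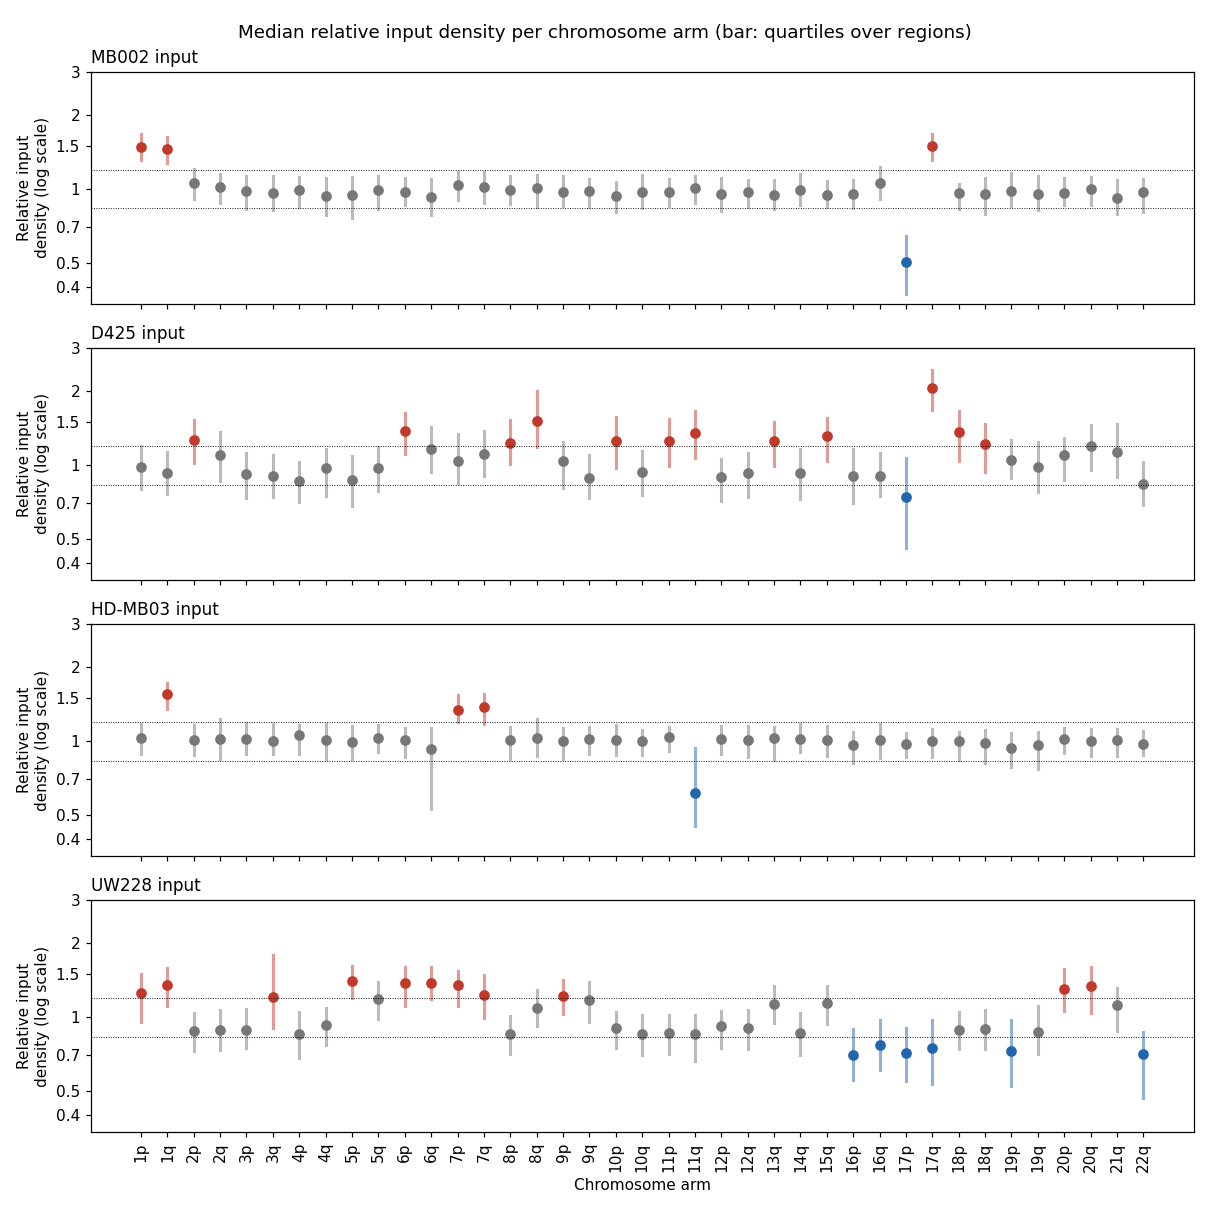
Median relative input density (vertical axis, log scale, no unit) of each of the 39 chromosome arms (horizontal axis) in the 4 input libraries, 1 panel per line. Points are medians over regions, bars span the lower to the upper quartile over regions, dotted lines mark 1.2 and 0.833, and red and blue points are high and low arms. MB002 and HD-MB03 show 4 outlying arms each over a flat row, whereas the levels of D425 and UW228 are graded.

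MB002 had a flat profile with changes on 2 chromosomes. Both arms of chromosome 1 were high, 1p at 1.49 (quartiles 1.32 to 1.67, 967 regions) and 1q at 1.45 (1.28 to 1.63, 829 regions). The arm 17q was at 1.49 (1.32 to 1.67, 527 regions), and 17p was at 0.502 (0.374 to 0.641, 105 regions), the lowest arm of the 4 lines. All 30 windows of 10 Mb on 1p, 1q and 17q were high, at 1.39 to 1.58. Outside chromosomes 1 and 17, the 254 windows lay between 0.788 and 1.15, so the window ranges did not touch. Set against the median of the arms that were neither high nor low, 0.974, the levels of 1p, 1q and 17q were 1.53, 1.49 and 1.53 times that median, and 17p was at 0.516 of it.

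HD-MB03 had other arms away from the middle. The highest arm was 1q at 1.56 (1.36 to 1.72, 470 regions), while 1p was at 1.03, and the windows of 1q lay at 1.42 to 1.62. Chromosome 7 was high over its whole length, with 7p at 1.34 (1.198 to 1.54, 214 regions) and 7q at 1.38 (1.18 to 1.56, 361 regions), and its 16 windows lay between 1.26 and 1.501. The low arm was 11q at 0.616 (0.450 to 0.935, 181 regions), of whose 7 windows 5 were low. Chromosome 17 lay at the middle in this line, with 17p at 0.970 and 17q at 1.00. Relative to the median of the other arms, 1.01, the high arms were at 1.54, 1.33 and 1.36 times that median for 1q, 7p and 7q, so chromosome 7 sat lower than 1q. Of the 242 windows of the arms that were neither high nor low, 5 were high and 7 low, from 0.381 to 3.43, so that single stretches left the middle without a call of their arm.

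D425 had the highest arm of the 4 lines, 17q at 2.06 (1.68 to 2.44, 377 regions), and all 7 of its windows lay between 1.83 and 2.22. Its only low arm was 17p at 0.739 (0.459 to 1.07, 173 regions). The other 11 high arms ranged from 18q at 1.21 to 8q at 1.51, with 6p at 1.38, 18p at 1.36, 11q at 1.35, 15q at 1.31, 2p at 1.27, 11p at 1.26, 13q and 10p at 1.25 each, and 8p at 1.23. Of these, 6p and 15q were high in every window, as was 17q. The 15q windows, for example, lay at 1.21 to 1.37. Over the 12 high arms, 63 of 83 windows were high. At 8p it was 1 of 5 windows, and at 13q 4 of 10. The weaker calls in D425 therefore rested on levels close to 1.2. Leaving aside regions shared by a pair of lines, 7 of the 12 high arms (2p, 6p, 8q, 11q, 15q, 17q and 18p) kept their call under every alternative at the same factor. Against the median of the arms of D425 that were neither high nor low, 0.954, its high arms were at 1.27 to 2.16 and 17p was at 0.775.

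At these thresholds UW228 was the line with the most arms called. The 11 high arms were 5p at 1.40, 6q at 1.38, 6p at 1.37, 7p at 1.36, 1q at 1.35, 20q at 1.34, 20p at 1.3, 1p at 1.25, 7q at 1.23, 9p at 1.225 and 3q at 1.21. The 6 low arms were 16p at 0.699, 22q at 0.705, 17p at 0.718, 19p at 0.730, 17q at 0.748 and 16q at 0.770. Of the windows of the low arms 21 of 24 were low, and of those of the high arms 57 of 82 were high. Leaving aside regions shared by a pair of lines, 7 of the high arms (1q, 5p, 6p, 6q, 7p, 20p and 20q) kept their call under every alternative at the same factor. Of the low arms 2 did (16p and 17p). The baseline of this line lay above its typical arm, since the median of the arms that were neither high nor low was 0.893. Against that median the high arms were at 1.36 to 1.57 and the low arms at 0.783 to 0.863, of which 17q (0.838) and 16q (0.863) would not be low. All 6 low arms were among the 8 arms of this line that were richest in G and C, of which 20q was high and 19q, at 0.874, neither high nor low. With a correction for GC content that kept the baseline of the line, 19p was at 1.17.

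**Figure D2:**
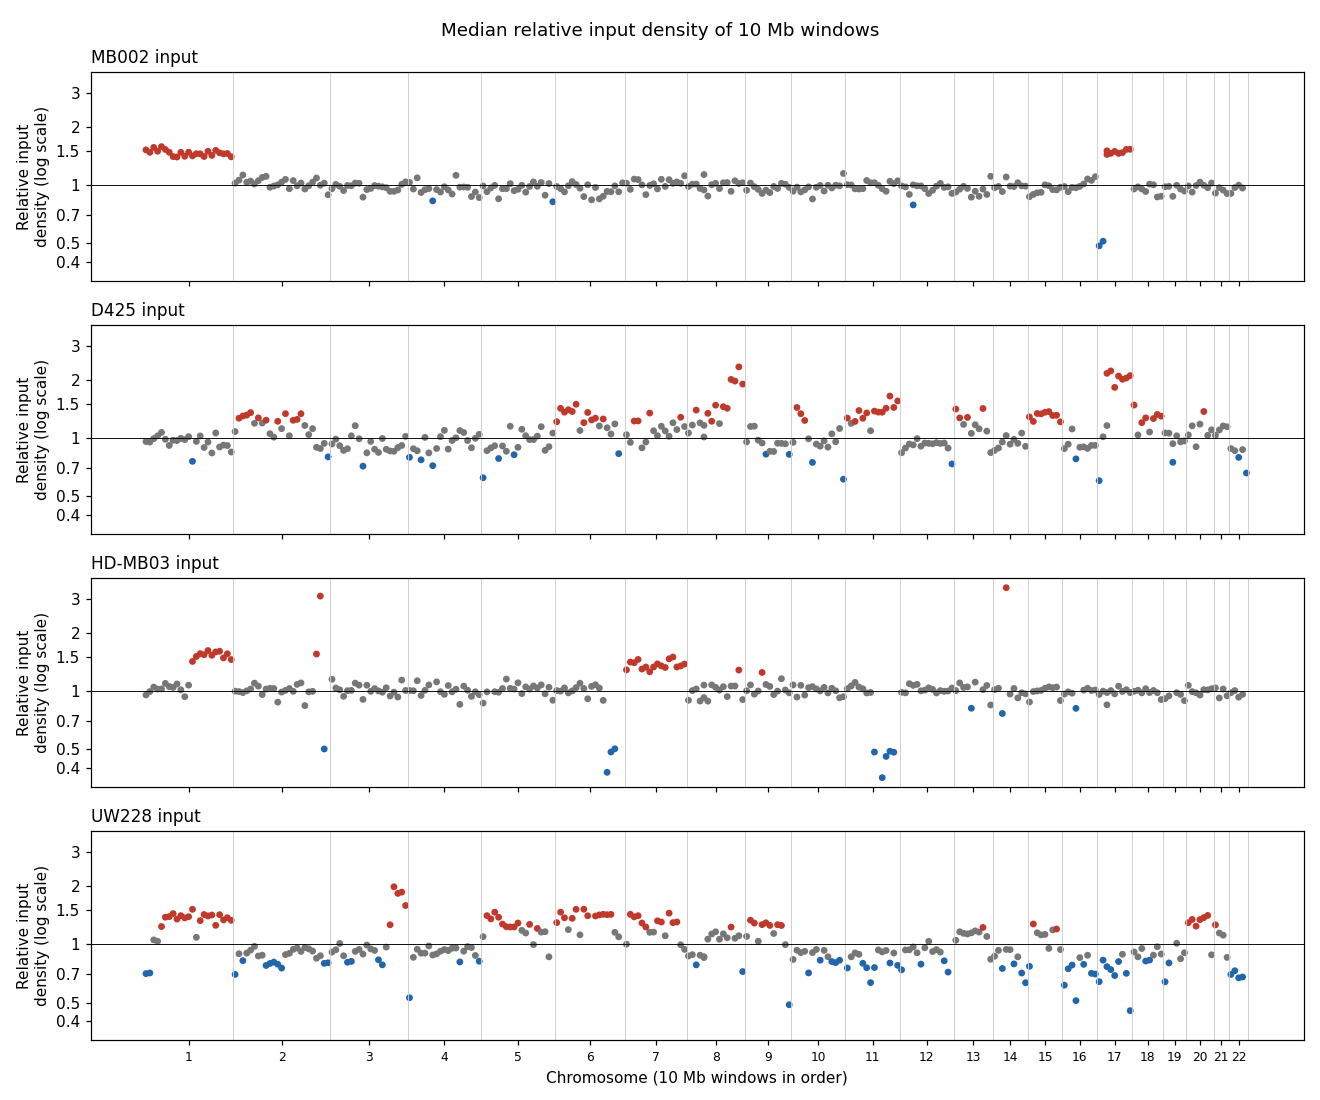
Median relative input density (vertical axis, log scale, no unit) of 10 Mb windows of at least 5 regions, in the order of chromosomes 1 to 22 (horizontal axis), 1 panel per line. Red and blue points are windows at 1.2 or more and at 0.833 or less. The 30 windows of 1p, 1q and 17q in MB002 lie at 1.39 to 1.58, above every window outside chromosomes 1 and 17, and whole-chromosome shifts such as chromosome 7 in HD-MB03 appear as level runs of points.

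Chromosome 17 separated the lines most. At 17q, MB002 was at 1.49, D425 at 2.06, HD-MB03 at 1.00 and UW228 at 0.748, a range of 2.75-fold and the widest of the 39 arms. The windows of 17q in MB002 (1.45 to 1.53), D425 (1.83 to 2.22), HD-MB03 (0.969 to 1.06) and UW228 (0.455 to 0.889) did not overlap between any pair of lines. For 17p the levels were 0.502, 0.739, 0.970 and 0.718 in the same order, and only HD-MB03 was not low. The ratio of 17q to 17p, in which the baseline of a line cancels, was 2.97 in MB002 and 2.78 in D425, against 1.04 in both HD-MB03 and UW228. Hence the low 17p went with a high 17q in 2 of the 3 G3-MB lines, while in UW228 both arms were low together and in HD-MB03 neither was. In UW228 the call of 17q ended with a correction for GC content that kept the baseline of the line, at 0.855, and 17p stayed low at 0.830. Over the other chromosomes with both arms measured, the ratio of q to p lay at 0.947 to 1.101 in MB002 and 0.746 to 1.22 in D425.

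In both of these lines 17p itself held a change of level. In MB002, the best single split of 17p lay between position 17480130 and 17662653 (GRCh38), at 0.482 on the telomeric side and 1.19 on the centromeric side. Windows of 2 Mb were at 0.373 to 0.665 up to 18 Mb, at 1.19 from 18 to 20 Mb and at 1.44 from 20 to 22 Mb, close to the 1.49 of 17q. The centromeric side of this split held 20 regions, the fewest that the search allowed on a side, so the split lay at the limit of the search. When chromosome 17 was searched as a whole, which was an alternative chosen after the data were seen, the split lay between 17944356 and 19242432, with 0.470 and 1.49 on its sides.

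In D425 the 17p arm had 2 levels as well, and 17q a further one. The best split lay between 12643512 and 13180616, from 0.549 on the telomeric side to 1.16 on the centromeric side, with *MAP2K4* before it and *HS3ST3A1* after it. The 2 Mb windows lay at 0.496 to 0.790 from the telomere to 14 Mb and at 1.16 to 1.25 from 14 to 22 Mb. Across the centromere the first window of 17q was at 2.11. Searched as a whole, chromosome 17 of D425 split between 16408499 and 16535440, from 0.642 to 1.99. The arm median of 0.739 thus averaged a low stretch and one at 1.21 times the median of the arms that were neither high nor low. The median over its 3 windows of 10 Mb put 17p of D425 at 1.02, which ended the call. That measure weights windows equally, and the window beyond 20 Mb covered only the short centromeric end of the arm.

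**Figure D3:**
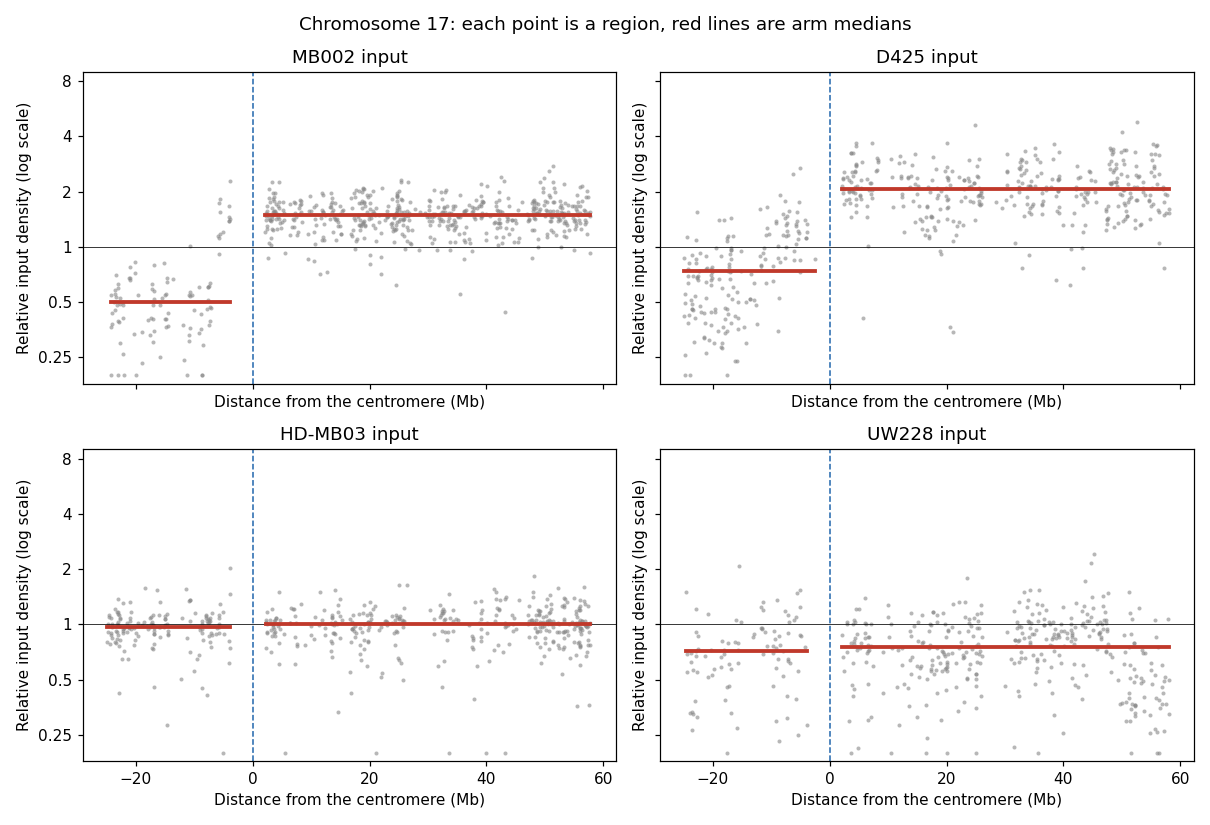
Relative input density (vertical axis, log scale, no unit) of each region of chromosome 17 against its distance from the centromere in Mb (horizontal axis, 17p negative and 17q positive), 1 panel per line. Grey points are regions, drawn at the edge where they fall below 0.2, red lines are arm medians and the dashed line is the centromere. The points of MB002 and D425 step up within 17p. The medians of both arms are similar in HD-MB03 (0.970 and 1.00) and in UW228 (0.718 and 0.748). Within the arms of UW228 the points also step, by a ratio of 1.35 on 17p and 0.604 on 17q, and neither step passed after GC correction.

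The arm 1q was high in 3 lines, at 1.45 in MB002, 1.56 in HD-MB03 and 1.35 in UW228, and D425 was the exception at 0.930. Its window ranges overlapped among the 3 high lines. No arm was high in all 4 lines, 1q was the 1 arm high in 3, and 5 arms were high in 2 lines. The arm 1p was high in MB002 at 1.49 and UW228 at 1.25, and was at 0.986 in D425 and 1.03 in HD-MB03. Chromosome 7 was high in HD-MB03 and UW228, and 6p was high in D425 and UW228. The low arm shared by most lines was 17p. Only 2 arms were high in a line and low in another. These were 17q, and 11q, which was at 1.35 in D425 and 0.616 in HD-MB03, with 1.01 in MB002 and 0.852 in UW228.

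The arms known for gain or loss in the subtypes were described as 4 lists. Of the 6 arms known for gain in Group 3 (1q, 7p, 7q, 17q, 18p and 18q), MB002 had 2 high, and D425 and HD-MB03 had 3 each, where 7.69%, 30.8% and 7.69% of all arms were high, with medians over the list of 1.03, 1.16 and 1.17 beside 0.976, 1.04 and 1.01 over all arms. UW228 also had 3 of them high, where 28.2% of all its arms were high, with a list median of 1.06 beside 0.905 over all arms, but 17q low. Different arms made up these counts, since D425 had 17q, 18p and 18q and HD-MB03 had 1q, 7p and 7q. Of the 7 arms known for loss in Group 3 (8p, 8q, 10q, 11p, 11q, 16q and 17p), 1 was low in each G3-MB line, where 2.56% of all arms were low, and 2 in UW228, where 15.4% were. D425 had 4 of these 7 high instead, namely 8p, 8q, 11p and 11q, and its list median was 1.23.

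For SHH, both arms known for gain, 3q and 9p, were high in UW228, where 28.2% of all arms were high, and neither was high in a G3-MB line. The level of 3q was 1.21 in UW228 and 0.904 to 1.00 in the others, and that of 9p was 1.225 against 0.970 to 1.04. Both calls ended with the correction for GC content on the same baseline, at 1.194 for 3q and 1.157 for 9p, and also with the baseline from the regions used, and they held under 6 and 5 of 12 alternatives at the same factor. Of the 4 arms known for loss in SHH (9q, 10q, 14q and 17p), only 17p was low in UW228, where 15.4% of all arms were low. By call 17p was also low in MB002 and D425, where 2.56% of all arms were low. After the GC correction on the same baseline 17p was still the only low one of the 4, where 3 of all 39 arms were low. With the correction that also re-centred the line 10q and 14q were low as well, at 0.820 each, where 15 of all 39 arms were low. The arm 9q, which carries *PTCH1*, was at 1.18 in UW228, its highest level among the 4 lines, and 14q was at 0.864. With 1 SHH line, these values belong to UW228 and not to the subtype.

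Arms were next compared between pairs of lines, with a factor of 1.2 between the medians as a difference. MB002 and HD-MB03 differed least, in 6 of 39 arms (15.4%). MB002 was higher at 3 (7.69%), namely 1p (1.45-fold), 11q (1.64-fold) and 17q (1.48-fold), and lower at 3 (7.69%), namely 7p, 7q and 17p, with ratios of 0.773, 0.742 and 0.518. The other 5 pairs differed in 17 to 21 arms. MB002 and D425 differed in 17 (43.6%), with MB002 higher at 2 (5.13%) and lower at 15 (38.5%). MB002 and UW228 differed in 21 (53.8%), with MB002 higher at 6 (15.4%) and lower at 15 (38.5%). D425 and HD-MB03 differed in 18 (46.2%), with D425 higher at 13 (33.3%) and lower at 5 (12.8%). D425 and UW228 differed in 19 (48.7%), with D425 higher at 12 (30.8%) and lower at 7 (17.9%). HD-MB03 and UW228 differed in 17 (43.6%), with HD-MB03 higher at 8 (20.5%) and lower at 9 (23.1%). Many of these were small. The window ranges were apart in 10, 11, 9, 10 and 11 of them in that order, and in 4 of 6 for MB002 and HD-MB03. The largest ratios between lines were at 17q between D425 and UW228 (2.75-fold) and at 11q between D425 and HD-MB03 (2.19-fold), both with windows apart. The 3 pairs of G3-MB lines thus differed in 6, 17 and 18 arms and the 3 pairs with UW228 in 17, 19 and 21, counts that overlap.

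Since regions were called in each line on its own, the pairs were also compared over regions that both lines shared over at least 50% of their length, an alternative chosen after the data were seen. MB002 and HD-MB03 again differed in 6 arms, of 37 with enough regions. MB002 and D425 differed in 23 of 38 arms, against 16 of the same arms over all regions, and MB002 and UW228 in 9 of 21, against 10. D425 and HD-MB03 differed in 17 of 34 arms, against 16, and D425 and UW228 in 16 of 29, against 15. HD-MB03 and UW228 differed in 10 of 16 arms, against 5, and only 5 of these 16 kept their class. No pair had an arm that turned from higher to lower. The level of D425 was higher in the regions shared with MB002 in all 38 arms, and in those shared with HD-MB03 in all 34, but in those shared with UW228 in 12 of 29. In the regions shared with MB002, for example, 7p of D425 was at 1.44, against 1.03 over all its regions, and 17p was at 0.938. At 17q, D425 was 3.29-fold above UW228 and 2.297-fold above HD-MB03 in shared regions.

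Several arms held more than 1 level. For each arm the single split was sought that best separated 2 stretches of at least 20 regions each, and it is given where the medians of the sides differed by a factor of at least 1.3. Such steps were found in 1 of 39 arms (2.56%) of MB002, 12 (30.8%) of D425, 3 (7.69%) of HD-MB03 and 23 (59%) of UW228. After division by the median of regions of like GC content, 1, 12 and 3 remained in the G3-MB lines, but 3 of 23 in UW228. The lower side of the step had the higher GC content in 22 of the 23 arms of UW228, in 10 of 12 of D425, in 2 of 3 of HD-MB03 and in 0 of 1 of MB002. Of UW228 only the 3 arms that passed after the correction, 1p, 3q and 9q, are described.

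The sides of the 3 steps of HD-MB03 differed by factors of 2.08 to 2.26. On 11q the level went from 0.986 to 0.473 between 67607903 and 68128045, after *GSTP1* and before *KMT5B*, and the low stretch of 65.9 Mb held 466 coding genes. On 6q it went from 1.05 to 0.464 between 128603181 and 128671735, in a gap of 68.6 kb between *PTPRK*, a receptor tyrosine phosphatase, and *LAMA2*, a laminin chain. The median of 6q, 0.925, was not low and hid this stretch of 41.9 Mb with 196 coding genes. On 2q the level went from 1.05 to 0.503 between 227513653 and 228328770, near the end of the arm. Before that step, 2 Mb windows from 216 to 224 Mb were at 1.56 to 1.64, and the window from 226 to 228 Mb was at 4.99, so that 2 stages of higher level lay in front of windows at 0.409 to 0.561. The low sides were at 0.47, 0.46 and 0.50 of the median of the arms that were neither high nor low, near the 0.49 of distal 17p in MB002.

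In D425 a step upward lay on 8q, from 1.32 to 2.01 between 104348385 and 104649383, a gap that held *DPYS*, *DCSTAMP*, *LRP12* and *ZFPM2*. The distal stretch of 39.9 Mb, which holds *MYC*, was high in each 2 Mb window with enough regions. Outside the window near *MYC* these lay at 1.33 to 2.60. No window between 104 and 116 Mb had enough regions, so the part next to the step was not covered. Distal ends below the rest of the arm were found on 2q (1.19 to 0.883), 6q (1.18 to 0.831) and 13q (1.28 to 0.834). On 10p (0.950 to 1.31) and 11p (0.987 to 1.28) it was the rest of the arm that was high and the telomeric end that lay at the middle. On these 5 arms the sides differed by factors of 1.301 to 1.53, beside 1.52 on 8q, and on the other 5 arms with a step (2p, 3p, 11q, 18p and 20p) by 1.304 to 1.44.

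In UW228 the step on 3q went from 0.923 to 1.80 between 155323119 and 155871848, a gap with *PLCH1*, *SLC33A1* and *GMPS*, and the distal stretch of 42.1 Mb held 218 coding genes. The median of 3q, 1.21, thus averaged a stretch below the middle and a stretch well above it, and the median over windows put the arm at 0.992. The ratio of the sides was 1.96 before and 1.95 after GC correction. On 1p the level went from 0.690 to 1.32 between 21941665 and 22447226, and this ratio of 1.92 became 1.55 after GC correction. At the end of 9q it went from 1.204 to 0.388, a ratio of 0.322 that became 0.608.

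**Figure D4:**
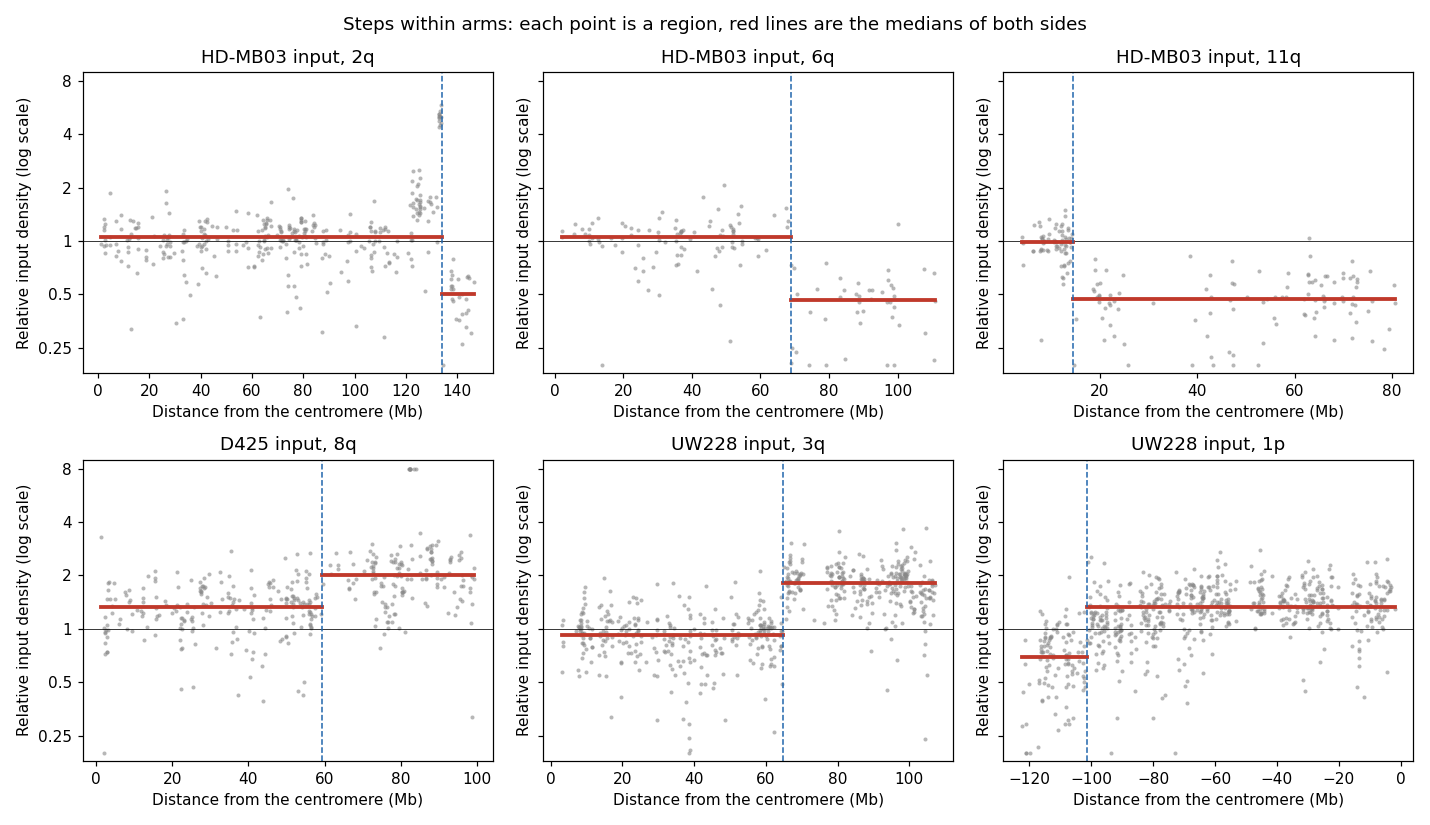
Relative input density (vertical axis, log scale, no unit) of single regions against distance from the centromere in Mb (horizontal axis) for 6 arms with a step, 3 in HD-MB03, 1 in D425 and 2 in UW228. Grey points are regions, drawn at the edges where they fall below 0.2 or above 8, red lines are the medians of both sides and the dashed line marks the split. The distal sides lie at 0.503, 0.464 and 0.473 on 2q, 6q and 11q of HD-MB03, at 2.01 on 8q of D425 and at 1.80 on 3q of UW228.

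The arm levels were then read at 35 landmark genes of medulloblastoma, as the median of the regions centred within 1 Mb of the start of the gene. Values were found for 33, 34, 33 and 31 genes in MB002, D425, HD-MB03 and UW228, and 29, 21, 30 and 19 of these fell in the same class as their arm. Of all 10 Mb windows, 283 of 287, 231 of 287, 262 of 276 and 194 of 279 fell in the class of their arm, in the same order of lines, and both shares were higher in MB002 and HD-MB03 than in D425 and UW228.

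On chromosome 17, *NCOR1*, a corepressor gene on 17p (chr17:16029065-16218185), was at 0.339 in MB002, 0.718 in UW228, 0.942 in D425 and 0.947 in HD-MB03. It lies between the split within 17p and that of the whole chromosome in D425. *ERBB2*, a receptor tyrosine kinase gene on 17q (chr17:39687914-39730426), was highest in D425 at 2.12, followed by MB002 at 1.42, HD-MB03 at 1.01 and UW228 at 0.652. *PPM1D*, which encodes a phosphatase of the DNA damage response, was at 1.38, 2.11 and 0.882 in MB002, D425 and UW228. It was thus not low in UW228, although 17q was low there at 0.748.

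On chromosome 1, *MYCL*, a gene of the MYC family on 1p (chr1:39895428-39902256), was at 1.51 in MB002 and 1.34 in UW228, with 1.00 in D425 and 0.966 in HD-MB03. *MDM4*, a relative of *MDM2*, lies on 1q (chr1:204516379-204558120) and was at 1.65 in HD-MB03, 1.49 in MB002, 1.25 in UW228 and 1.09 in D425. *GFI1*, a repressor gene activated in some Group 3 tumors, was at 1.40 in MB002, 1.37 in UW228, 1.07 in D425 and 1.03 in HD-MB03. These 3 genes were thus high in the lines whose arm was high. *TP73*, at the end of 1p, had values in D425 (0.483) and HD-MB03 (0.935), and in D425 it was low where the arm was at 0.986.

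On 7q, *CDK6*, a cell cycle kinase gene, was at 1.43 in HD-MB03, 1.33 in UW228, 1.498 in D425 and 1.04 in MB002, and *SMO*, the hedgehog signal transducer, at 1.45 in HD-MB03, 1.11 in UW228, 1.41 in D425 and 1.05 in MB002. Also on 7q, *KMT2C*, a histone methyltransferase gene, was at 1.38 in HD-MB03, 1.17 in MB002, 0.968 in UW228 and 0.828 in D425. D425, whose 7q was at 1.11 as an arm, was thus high at *CDK6* and *SMO* and low at *KMT2C*, while HD-MB03 was high at all of them. *SOX2*, a stem cell factor on distal 3q, was at 1.70 in UW228, on the high side of the step, and at 0.909 in MB002. *CDKN2A*, a cell cycle inhibitor on 9p, was not low in any line, at 1.36 in UW228 and 0.937 to 1.13 in the G3-MB lines. *PTCH1* on 9q was at 1.16 in UW228 and 0.934 to 1.00 in the others. *GFI1B*, also on 9q, was at 0.855 in UW228, 0.770 in D425, 0.970 in HD-MB03 and 0.988 in MB002. *SMAD4* on 18q was at 1.38 in D425, 1.27 in HD-MB03, 1.02 in MB002 and 0.816 in UW228.

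*MYCN*, another gene of the MYC family, lies on 2p and was at 1.27 in D425, whose arm was high, with 1.07 in MB002 and 1.01 in HD-MB03. Of the genes on the low arms of UW228, *CREBBP* on 16p, which encodes a histone acetyltransferase, was at 0.649 there and at 0.973 to 1.02 in the G3-MB lines. *SMARCA4* on 19p, which encodes a subunit of a chromatin remodeller, was at 0.717 in UW228 and 0.980 to 1.004 in the others. Both were low where their arm was low, though 19p of UW228 was at 1.17 after GC correction on the same baseline. Of 6 further landmark genes on the arms described, 5, 6, 6 and 5 had a value in MB002, D425, HD-MB03 and UW228, and 4, 4, 5 and 3 of these were in the class of their arm.

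Single stretches reached far higher densities than any arm. The density within 1 Mb of *MYC* was 45.4 in D425, whose 8q was at 1.51, and that within 1 Mb of *OTX2* was 29.6 in MB002 and 5.15 in HD-MB03, whose 14q arms were at 0.994 and 1.02. Near *OTX2*, D425 was at 1.39, with a single region at 64.5, and UW228 at 0.745. Single regions within 1 Mb of *MYC* also reached 154 in HD-MB03 and 46.4 in MB002, although the medians there were 1.06 and 1.295. Regions at a density of 5 or more numbered 36, 11, 38 and 1 among those used in MB002, D425, HD-MB03 and UW228, and leaving them out changed no call of an arm, since a median over an arm hardly moves with so few regions. The summed input over the summed length does respond to them, and it put 14q of MB002 at 4.30 and 8q of HD-MB03 at 12.03.

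Base composition went with the level in UW228 more than in the other lines. Over regions of arms that were neither high nor low, the correlation of GC content with relative input density was -0.427 in UW228 (8547 regions), -0.104 in HD-MB03 (7613), 0.0375 in D425 (10172) and 0.117 in MB002 (12812). These points share 1 library per line, and the values are a description. In UW228 the fifth of regions with the lowest GC content was at 1.03 and the fifth with the highest at 0.723, whereas in MB002 they were at 0.908 and 1.04. The 6 low arms of UW228 had median GC contents of 45.8% to 52.8%, against 41.3% over all its regions. Across the 39 arms of UW228 the correlation with GC content was -0.491, against -0.221 to -0.0558 in the G3-MB lines.

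Levels were corrected by division by the median of regions of like GC content and put back on the baseline of the line, an alternative chosen after the data were seen. The arm 19p of UW228 then went from 0.730 to 1.17. The arms 16p and 17p remained low at 0.793 and 0.830, and 16q, 17q and 22q, at 0.860, 0.855 and 0.841, were no longer low. Of the 11 high arms of UW228, 9 remained high, without 3q and 9p, while 19q became high at 1.23 and 4p low at 0.813. The calls of MB002, D425 and HD-MB03 were the same arms with and without this correction. The correction that had been planned also re-centred each line on the regions used. It gave 8 high and 15 low arms in UW228, and in D425 it left out 8p and 18q and added 22q as low, arms whose calls changed in the same way when only the baseline was taken from the regions used. The part of base composition in the UW228 levels beyond these corrections was not tested.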

How the data were processed

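The authors aligned reads to GRCh38, removed multi-mappers and duplicates, called H3K27Ac peaks over input and stitched and ranked them with ROSE. The submitters' processing notes name Bowtie 2 2.3.0, SAMtools 1.9 and MACS2 2.2.6, and the file headers name a stitching distance of 12 kb. The deposited input signal of a region is the input reads at each base, scaled by how many reads the library had mapped, rounded to 4 decimals and multiplied by the length. It is not a count, and the depth is unknown. H3K27Ac signal, ranks, super-enhancer calls and RNA-seq were not used here.

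Densities, arms (cytoband centromere borders of GRCh38, entered by hand and not read from a reference file), windows and splits were computed with Python 3.11.15, numpy 2.4.6 and pandas 2.3.3, and drawn with matplotlib 3.10.9. Genes were from GENCODE, and the sequence of GRCh38 gave the GC content, which was corrected in 20 bins. Arm levels and the search for a split were checked on simulated data with planted levels. The simulated data held no effect of GC content, and how often a step is found where none was planted was not measured. An arm needed 30 regions, a window 5 and a gene 3.

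Comparisons were descriptions with no test, since 1 library per line was made. The arms named were those high or low in at least 1 line and those of the 4 lists, and the genes were 35 fixed landmarks, of which those on the arms described are given by name, except 6 given as counts and 1 that is not reported here. Members and lists were chosen with earlier results of these data known. Alternatives were other minimum lengths, measures per arm, baselines, region sets, GC correction and thresholds.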

Additional observations from a re-analysis of the deposited data

Results flagged for a closer look

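The ratio of q to p arm cancels the baseline of a line. For 4 of the 17 chromosomes with both arms measured it lay on one side of 1 in all 3 G3-MB lines and on the other side in UW228, and the difference was not tested, since 1 library stood against 3.

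For chromosome 3 MB002 was at 0.991, D425 at 0.983 and HD-MB03 at 0.987, against 1.36 in UW228, where distal 3q was high. For chromosome 5 it was 1.05, 1.12 and 1.04 in the same order, against 0.848 in UW228, whose 5p was at 1.40 and 5q at 1.19. For chromosome 6 the ratios of 0.947, 0.842 and 0.914 stood against 1.00 in UW228 (1.0033), and for chromosome 18 the ratios of 0.992, 0.894 and 0.984 stood against 1.00 (1.0040), so that UW228 was barely above 1 for both. After GC correction of all lines, which was chosen after the data were seen, chromosome 5 was the 1 of these 4 on which the lines still lay on opposite sides of 1. For chromosome 6 UW228 then stood at 0.936, and for chromosome 18 MB002 was at 1.03. For chromosome 3 MB002 moved to 1.006, but UW228 stayed apart at 1.37, against 0.966 to 1.006 in the G3-MB lines.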

How the results depend on the processing

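The counts of high and low arms of MB002 and HD-MB03 were the same under each alternative that gave one, except the summed input over summed length, which weights the regions of very high density. It gave 5 high arms in MB002, with 8q and 14q added, and 6 in HD-MB03, with 2q, 8q and 14q added. Of 39 arms, 26 changed class under at least 1 alternative at the same factor in UW228, 10 in D425, 3 in HD-MB03 and 2 in MB002. Regions shared by a pair of lines were not among these alternatives. In those shared with MB002 and HD-MB03, D425 levels were at medians of 1.23 and 1.22 times its levels over all regions. In those shared with UW228 that median was 0.992. D425, with 1 low arm at the main settings, had 2 low arms at minimum lengths of 500 bp, 2 kb and 5 kb, without regions over a transcription start site and with GC correction, 0 with summed input and with window medians, and 4 with both other baselines. With window medians, 17q over 17p of D425 was 2.06, its 17p was at 1.02 and 3q of UW228 at 0.992. The baseline from the regions used gave 7 high arms in D425 and 10 low arms in UW228, and that from arm medians 17 high arms in UW228. GC correction, which also re-centres a line, gave 15 low arms in UW228 and put its 19p at 1.13, and on the same baseline, an alternative chosen after the data were seen, it gave 3 low arms and 19p at 1.17. At a factor of 1.1, D425 had 9 and UW228 20 low arms, and 29, 29 and 35 arms differed between D425 and HD-MB03, D425 and UW228, and HD-MB03 and UW228. At 1.3, D425 had 6 and UW228 7 high arms, and 11, 12, 7 and 10 arms differed between MB002 and D425, MB002 and UW228, D425 and HD-MB03, and HD-MB03 and UW228. In regions shared by a pair, chosen after the data were seen, 9 of 21 arms differed between MB002 and UW228 and 10 of 16 between HD-MB03 and UW228, against 10 and 5 of the same arms over all regions. Beyond the construction of each alternative, the cause was not tested.

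Regions shared by all 4 lines numbered 423 to 568 per line, too few for counts of arms, and 1p of UW228 was at 0.992 there. In all, 215 counts stayed within a factor of 1.5 of the main value, or ratios of 17q to 17p within 1.2, and 30 did not. Of the levels of the single arms named, 1365 kept their class and 72 changed it without such a crossing. Another 5, of arms high or low at the main settings, crossed 1. Crossings of 1 by arms that were neither high nor low at the main settings were not counted. No paired analysis was possible because each line had 1 input library. Depth is unknown, so counting error could not be given.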
